A study of Rattus norvegicus with 8 samples.

Results

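Insl3 and Cyp17a1, the genes of the ovary's best known theca cell products, were examined in rat ovaries. They are 2 of the 26204 gene names on the array, and each was read by 1 probe, so 2 of 30350 usable probes carried the measurements. The probes were all those, apart from control spots, that the array files name Insl3 or Cyp17a1. Ovary RNA came from female rats injected under the skin at 26 days of age and taken 48 h later, at 28 days. The 4 arrays labelled PMSG held ovaries of rats given 50 IU of pregnant mare serum gonadotropin (PMSG) in 0.2 ml of a buffer with albumin. The 4 arrays labelled control held ovaries of rats given 0.2 ml of that buffer alone. The labels name no strain, and they do not say whether an array holds the RNA of 1 animal or of several. P-values therefore measure the spread between these samples, which may in part be technical.

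Theca cells form the outer wall of the growing follicle. They carry the receptor for luteinising hormone and make androgens, which granulosa cells on the inner side turn into oestrogens. Cyp17a1 encodes the enzyme that converts progestins into androgens, the step that sets theca cells apart from granulosa cells. Insl3 encodes a secreted peptide of the relaxin family, which acts through the receptor Rxfp2 and is made by theca cells in the ovary and by Leydig cells in the testis. PMSG acts on the receptors of both follicle-stimulating and luteinising hormone, and it is given to immature rats to make follicles grow.

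The stretches of sequence that fix what was measured are shown first. Both probes are 60 bases long, and 30 bases of each are printed from the array files, with coordinates on rat build rn4. For Insl3 these are probe bases 31 to 60 (chr16:18891446-18891475, plus strand). The capitals mark AATAAA, the letters of the polyadenylation signal, which lies near the end of transcripts. For Cyp17a1 these are bases 1 to 30 (chr1:251965562-251965591, minus strand), with nothing marked.
Insl3 probe: ggccaacagtctaAATAAAaaagcaacttg
Cyp17a1 probe: gatccatacctcaacacccacagtacaatc
The Insl3 probe as a whole covers bases 18891416 to 18891475 of chromosome 16, and the Cyp17a1 probe bases 251965532 to 251965591 of chromosome 1.

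The 250 bases before the start of Insl3 are shown too, from RefSeq on build GRCr8 (chr16:18432939-18433188, plus strand). No such stretch was at hand for Cyp17a1. The capitals mark TGACCT, which is AGGTCA read on the opposite strand and starts at position -108 from the gene start, and TATAA, which starts at position -36.
Insl3 promoter: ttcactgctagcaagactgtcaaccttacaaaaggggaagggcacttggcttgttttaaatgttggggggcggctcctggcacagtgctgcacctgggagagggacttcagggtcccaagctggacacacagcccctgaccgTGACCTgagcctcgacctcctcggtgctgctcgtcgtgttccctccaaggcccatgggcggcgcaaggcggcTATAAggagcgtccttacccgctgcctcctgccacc
AGGTCA is only the core of the site bound by the steroidogenic nuclear receptor Nr5a1. The bases beside it were not compared with the full site. All motifs were searched on both strands, and the 2 marked ones do not overlap. AGGTCA lay in 14.1% of 33469 promoter stretches of the same length, and TATAA lay in 24.0% of them. AGATAA, a core site of GATA factors, lay in 10.3% of all stretches and was not among the letters of the Insl3 stretch. These matches describe the letters and show no binding.

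Levels are given as log2 of the spot signal minus the 75th percentile of log2 signal on the same array. A level of 0 is thus a fairly bright probe, and 1 unit is a doubling. Levels of different probes are not compared, since probes differ in brightness. Over the 8 arrays the 75th percentile of the signal ran from 769 to 1103, and 80.8% to 84.6% of probes were well above the local background. All 8 arrays shared 1 slide and 1 scan date. With limma, 25303 probes were tested, and 34.2% passed an adjusted p of 0.05 (17.6% higher and 16.6% lower under the PMSG label). The median of all log2 differences was 0.11. Under the PMSG label Lhcgr, Star and Cyp11a1 were lower and Amh was higher, and luteal markers were high under the control label. This runs against the direction generally known for gonadotropin. Each direction here follows the labels alone, and an exchange of the labels, which was not tested, would turn every sign, that of Insl3 included.

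Insl3 was higher in arrays labelled PMSG by about 6 times, while Cyp17a1 showed no difference beyond its spread. On control-labelled arrays 1 to 4 Insl3 stood at 1.07, 0.39, 0.59 and 0.71. On PMSG-labelled arrays 1 to 4 it stood at 3.50, 3.57, 3.59 and 2.49. The groups did not overlap, as in 36.6% of all tested probes, and PMSG-labelled array 4 was the lowest of its group by a wide gap. The means were 0.69 ± 0.29 (SD, n = 4) in control and 3.29 ± 0.53 (SD, n = 4) in PMSG. The log2 difference was 2.60 (SE 0.27, 95% interval 1.97 to 3.22), or 6.04-fold, with a limma adjusted p of 3.47e-04. An exact two-sided permutation test gave p = 0.0286, the smallest that 4 arrays against 4 allow. Of all tested probes, 55 (0.217%) had a larger increase. In whole ovaries, a change in the number of cells of a type and a change in RNA per cell cannot be told apart.

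On the unscaled signal, Insl3 ran from 1376 to 2215 in control and from 6013 to 12241 in PMSG, with no spot saturated. Its 16 spots, 2 on each array, were all well above background. The 2 spots of an array differed by 0.16 on the log2 scale at most, which is far less than the difference between the labels. Its rank among all probes moved from the 79.5th percentile in control to the 93.4th in PMSG.

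Cyp17a1 stood at 5.25, 5.0, 5.05 and 4.88 on control-labelled arrays 1 to 4. On PMSG-labelled arrays 1 to 4 it stood at 5.20, 5.17, 4.79 and 4.14. The groups overlapped, and PMSG-labelled array 4 was again the lowest. The means were 5.05 ± 0.15 (SD, n = 4) in control and 4.83 ± 0.49 (SD, n = 4) in PMSG. The log2 difference was -0.22 (SE 0.23, 95% interval -0.76 to 0.32), with a limma adjusted p of 0.483 and an exact two-sided permutation p of 0.543. The interval leaves room for a moderate change in either direction. Without PMSG-labelled array 4 the log2 difference was 0.01 (limma adjusted p = 0.961).

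The unscaled signal of Cyp17a1 ran from 30982 to 40936 in control and from 18242 to 37582 in PMSG. The probe ranked at the 97.6th percentile in control and at the 97.3rd in PMSG. It was among the brightest of the array under both labels, and none of its 16 spots was saturated. The 2 spots of an array differed by up to 0.14 on the log2 scale, which is not small beside a difference of -0.22.

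**Figure D1:**
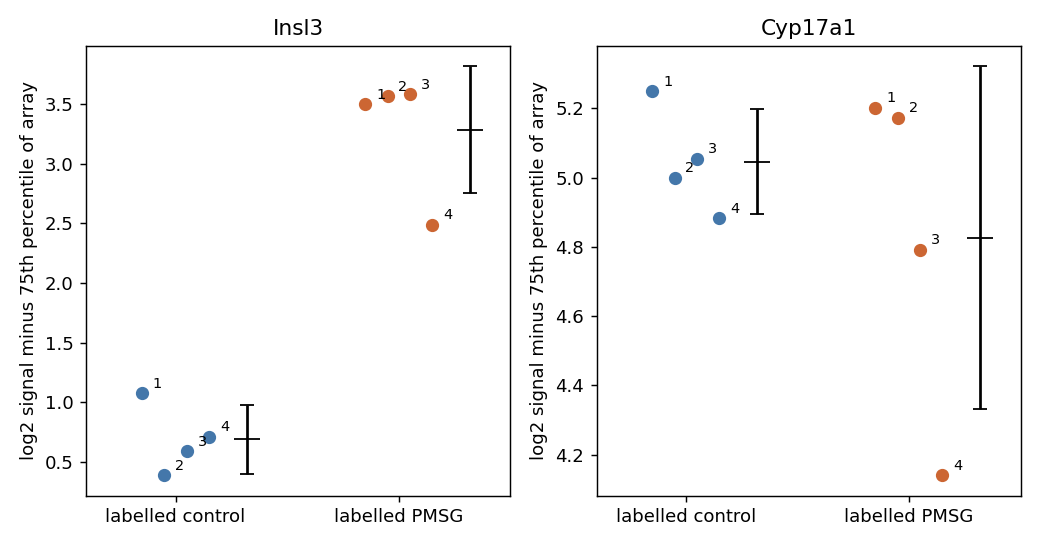
Level of Insl3 and Cyp17a1 on each array (vertical axis, log2 signal minus the array's 75th percentile), with control and PMSG arrays side by side. Insl3 lies between 0.39 and 1.07 in control and between 2.49 and 3.59 in PMSG, while the Cyp17a1 groups overlap.

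The arrays lay in 2 rows of the slide, each with 2 arrays of either label. Within row 1 the log2 difference of Insl3 was 3.03, and within row 2, which holds PMSG-labelled array 4, it was 2.16. For Cyp17a1 the differences were 0.04 in row 1 and -0.48 in row 2. Insl3 was thus higher under the PMSG label in both rows, and the sign for Cyp17a1 differed between them.

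The members were then set against each other within each array, which removes any shift of a whole array. Only the change of such a ratio between the labels is read, not its level. The log2 ratio of Insl3 to Cyp17a1 was -4.17, -4.61, -4.47 and -4.17 in control. It was -1.70, -1.61, -1.21 and -1.65 in PMSG. The groups did not overlap, and array 4 of PMSG lay within its group, unlike for either gene alone. The ratio rose by 2.81 on the log2 scale, or 7.04-fold (exact two-sided permutation test, p = 0.0286, adjusted over 3 ratios 0.0286). The 2 theca genes therefore changed unequally.

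**Figure D2:**
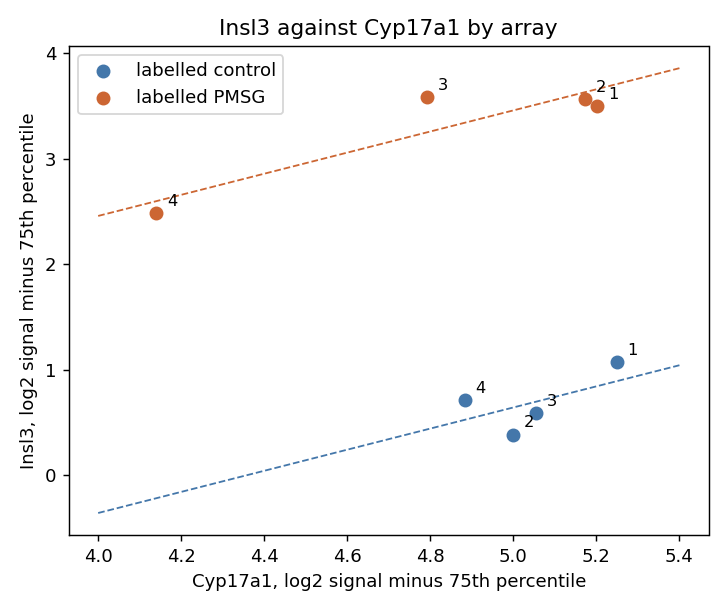
Insl3 (vertical axis) against Cyp17a1 (horizontal axis) on each of the 8 arrays, both as log2 signal minus the array's 75th percentile. Dashed lines mark each label's mean log2 ratio of the genes; the PMSG arrays lie above the control arrays, and PMSG array 4 is the lowest of its group on both axes, at 2.49 and 4.14.

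Most genes around Cyp17a1 in androgen synthesis fell under the PMSG label, while Cyp17a1 itself did not pass the threshold. Of 18 genes listed for the path from cholesterol to androgens, 16 were tested, with Cyp17a1 among them. Of these, 11 were lower, 1 was higher and 4 did not pass the threshold. Their median log2 difference was -0.91, beside 0.11 over all tested probes, of which 16.6% were lower. Without PMSG-labelled array 4 the counts were again 11 lower and 1 higher.

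At the head of the path stands Lhcgr, the receptor for luteinising hormone, which theca cells and mature granulosa cells carry. It stood at -1.36, -1.41, -1.92 and -1.06 in control and at -3.09, -3.43, -2.93 and -4.03 in PMSG. The groups did not overlap, and Lhcgr fell by 1.93 (SE 0.27, limma adjusted p = 0.00114). Scarb1 encodes a receptor that takes up cholesterol from lipoproteins. Scarb1 fell by 1.83 (limma adjusted p = 7.51e-05), and its other probe fell by 3.02.

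Star carries cholesterol into the mitochondrion. It stood at 4.75, 4.68, 4.80 and 4.92 in control, and at 1.92, 3.81, 1.42 and 0.99 in PMSG. The groups did not overlap, but the PMSG arrays were far apart, with array 2 nearest to the control level. Star fell by 2.75 (SE 0.54, limma adjusted p = 0.00541), and by its other probe it fell by 2.05. Cyp11a1, whose enzyme cuts the side chain of cholesterol, stood at 6.74, 6.51, 6.56 and 6.57 in control, and at 3.26, 3.13, 4.13 and 2.42 in PMSG. Every PMSG array lay far below every control array. Cyp11a1 fell by 3.36 (SE 0.31, limma adjusted p = 2.32e-04), which is 10.2-fold. Fdx1 and Fdxr, which supply Cyp11a1 with electrons, had log2 differences of -1.19 and -0.79 (limma adjusted p = 0.00713 and 0.0026).

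The Hsd3b genes encode enzymes of the next step, from pregnenolone to progesterone. Hsd3b1 stood at 6.97 ± 0.10 (SD, n = 4) in control and 7.04 ± 0.23 (SD, n = 4) in PMSG. Its difference of 0.07 (95% interval -0.24 to 0.37, limma adjusted p = 0.719) turned negative under other scalings. Hsd3b6 fell by 1.69 (limma adjusted p = 2.56e-04; after normexp background correction it was at -1.0) and Hsd3b7 fell by 0.61 (limma adjusted p = 0.0253). The Hsd3b7 call was lost when control-labelled array 1, 3 or 4, or PMSG-labelled array 1, was left out (limma adjusted p 0.0549 to 0.0644), and after normexp its difference was -0.39. Genes of this family have near-identical copies, so their probes may read more than 1 gene and these values are uncertain. Normexp was run with an offset of 50 added to each signal, which by itself shrinks the log2 differences of dim probes.

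Por and the Cyb5 genes serve Cyp17a1 itself. Por, which hands electrons to it, stood at 1.67 to 1.78 in control and at 0.56 to 0.96 in PMSG, and the groups did not overlap. It fell by 0.93 (SE 0.11, limma adjusted p = 5.79e-04). Cyb5a, which favours the step that yields androgens, had a log2 difference of -0.28 (limma adjusted p = 0.0871). Cyb5b fell by 0.89 (limma adjusted p = 5.00e-04). Akr1c14, an enzyme that acts on steroids further down, was the 1 gene of this list that rose when each gene was read by its brightest probe, by 0.60 (limma adjusted p = 0.0188), and it lost the call under median centring (limma adjusted p = 0.132) and without control-labelled array 1 or 3 (0.0505 and 0.0519). Srd5a1, which reduces testosterone to dihydrotestosterone, had a difference of 0.54 by its brighter probe (limma adjusted p = 0.0753). Its other probe rose by 0.75 (limma adjusted p = 0.0139), and the mean over both probes was 0.64 (0.0224). Hsd17b3, the enzyme of the last step to testosterone, was well above background on too few arrays to be tested.

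**Figure D3:**
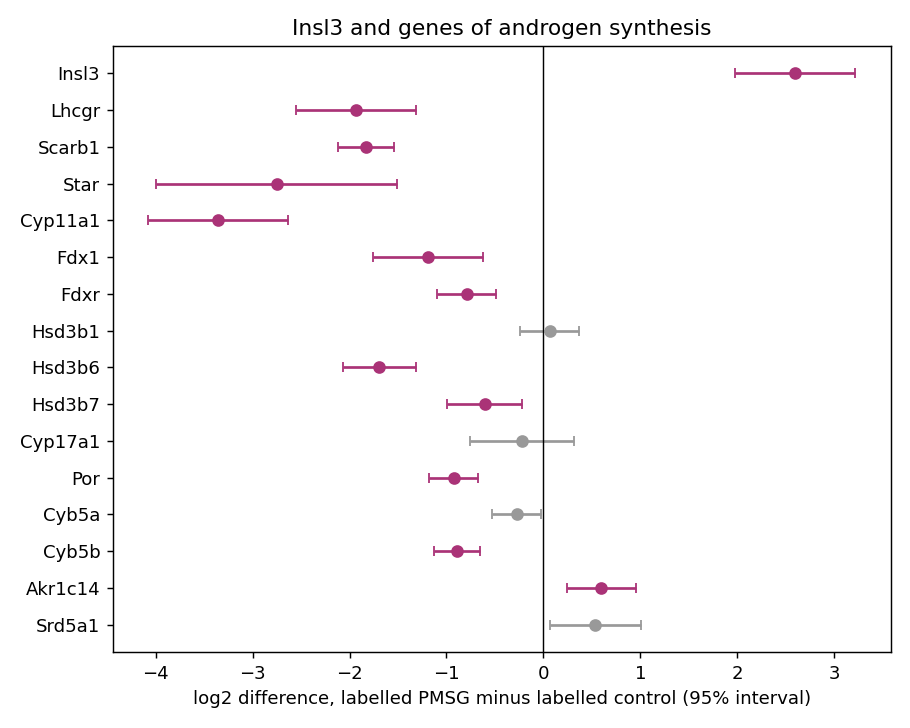
Log2 difference between PMSG and control arrays (axis, with its 95% interval) for Insl3 and 15 of the 16 tested genes of androgen synthesis; coloured points pass an adjusted p of 0.05 and grey points do not. Cyp11a1 at -3.36 and Star at -2.75 lie far from Cyp17a1 at -0.22.

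Within arrays, Cyp17a1 was set against the earlier steps. The log2 ratio of Cyp17a1 to Cyp11a1 was -1.49, -1.51, -1.51 and -1.69 in control, and 1.94, 2.04, 0.66 and 1.72 in PMSG. It rose by 3.14, or 8.80-fold (exact two-sided permutation test, p = 0.0286, adjusted over 3 ratios 0.0286). The ratio of Cyp17a1 to Star was 0.50, 0.32, 0.26 and -0.04 in control. In PMSG it was 3.28, 1.36, 3.37 and 3.15. It rose by 2.53, or 5.79-fold, with the same exact permutation p of 0.0286. Neither ratio overlapped between the labels.

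Granulosa cells use the androgens that Cyp17a1 makes. Of 4 genes listed for this, 3 were tested and none passed the threshold with limma, where 34.2% of all probes did. The log2 difference was -0.23 for Hsd17b1, an enzyme of oestrogen synthesis, and 0.34 for Fshr, the receptor gene for follicle-stimulating hormone. Cyp19a1, which turns androgens into oestrogens, was read by 1 probe that carries another name in the array files. That probe was well above background on 0 of 8 arrays, and whether it can detect Cyp19a1 was not tested.

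Among the relatives of Insl3, 9 genes of the relaxin family and its receptors were listed, 7 had a probe and 6 were tested. Of the 6, 1 was higher and 1 was lower with limma, beside 17.6% and 16.6% of all tested probes. These counts are no result about the list. Insl3 was the 1 higher gene. Rln1, which encodes relaxin, was the 1 lower gene. It stood at -2.13, -1.56, -2.18 and -2.0 in control and at -2.87, -3.39, -3.71 and -3.67 in PMSG, with no overlap. It fell by 1.44 (SE 0.22, limma adjusted p = 0.00165). Insl6, a family member known from the testis, had a difference of -0.80 (limma adjusted p = 0.0794), and its other probe one of -0.14 (0.652). It passed the threshold under median centring (0.032), and was -0.23 after normexp background correction (0.254). Rxfp2, the receptor for Insl3, was well above background on no array. The median log2 difference of the 6 was 0.07, beside 0.11 over all tested probes.

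Of 25 genes listed as regulators of Cyp17a1 or Insl3 transcription, 24 were tested, 4 were higher and 2 were lower. These shares were no larger than those over all tested probes, 17.6% and 16.6%. Their median log2 difference was 0.16, near the 0.11 of all probes. Nr5a1, an activator of steroidogenic genes, had a difference of -0.36 (SE 0.23, limma adjusted p = 0.26). Its relative Nr5a2, a receptor of granulosa and luteal cells, stood at -0.18 to 0.54 in control and at -1.63 to -1.04 in PMSG. It fell by 1.47 (limma adjusted p = 7.70e-04). Nr0b1, which represses Nr5a1 targets, stood at -3.65 to -3.08 in control and at -1.98 to -1.42 in PMSG. It rose by 1.64 (limma adjusted p = 3.63e-04).

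Esr1, the oestrogen receptor of theca and stroma, rose by 1.28 (limma adjusted p = 0.0025), or by 0.70 after normexp background correction. Nr2f1, an orphan nuclear receptor, rose by 1.06 (limma adjusted p = 0.00883, or 0.0501 under quantile normalization), with a difference of 0.67 after normexp. Its relative Nr2f2, a theca marker, had a difference of -0.07 (limma adjusted p = 0.846). Creb1, which answers cyclic AMP, fell by 0.40 (limma adjusted p = 0.0151, or 0.0843 after normexp background correction). Sp1 was called higher by 0.34 (limma adjusted p = 0.04), while its other probe had a difference of -0.09, and the mean over its probes was not called (0.492). Nr4a1, an early gene induced by luteinising hormone that activates both Insl3 and Cyp17a1, had a difference of -1.44 (limma adjusted p = 0.0536). Nr4a1 passed the threshold under 5 of 18 alternatives. Among them were median centring (limma adjusted p = 0.0389), normexp (0.0303), array weights (0.0401) and the filter for all 8 arrays (0.0459). Leaving out single arrays gave Nr4a1 differences of -1.98 to -1.17 (limma adjusted p 8.87e-04 to 0.127). The lowest p came without PMSG-labelled array 2, and the highest without control-labelled array 4. Gata4 had a difference of -0.39 (limma adjusted p = 0.123), and Bmp4, a theca factor that restrains androgen production, one of -0.49 (limma adjusted p = 0.24).

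Hedgehog ligands from granulosa cells act on theca cells, where they induce Ptch1 and Gli1. Of 10 genes listed, 8 were tested, 2 were higher and none was lower with limma. Over all tested probes 17.6% were higher and 34.2% were called in either direction, so 2 of 8 is no result about the list. Their median log2 difference was 0.33, beside 0.11 for all probes. Ptch1, the hedgehog receptor, stood at -5.61 to -5.01 in control and at -4.93 to -4.18 in PMSG, and rose by 0.79 (SE 0.21, limma adjusted p = 0.0187). Under quantile normalization the adjusted p from limma was 0.0556, and after normexp background correction the difference was 0.34 (0.0509). Gli1, the transcription factor induced by the pathway, stood at -2.71, -2.18, -2.57 and -2.43 in control and at -1.72, -1.70, -1.71 and -1.27 in PMSG. It rose by 0.87 (SE 0.15, limma adjusted p = 0.00349). In Gli1, PMSG-labelled array 4 was the highest of its group, where it was the lowest for Insl3 and Cyp17a1. Gli2 had a difference of 0.31 (limma adjusted p = 0.0834), and the ligand gene Ihh one of 0.34 (limma adjusted p = 0.301), with -0.11 for another Ihh probe.

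The label of theca cells was checked with 7 markers, the members included. All 7 were tested. Insl3, Ptch1 and Gli1 were higher, Lhcgr and Star were lower, and Cyp17a1 and Nr2f2 did not pass the threshold. Over all tested probes 17.6% were higher and 16.6% lower. The mean level of the 7 ran from 0.12 to 0.33 in control and from -0.22 to 0.44 in PMSG. Theca markers thus did not all move one way. All 7 were well above background on all 8 arrays.

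Markers of other cell types moved between the labels as well, and their part in the results above was not tested. Their counts stand beside 17.6% higher and 16.6% lower over all tested probes. All 9 oocyte markers rose, with a median of 1.97 and a mean level of -3.03 to -2.09 in control and -1.09 to -0.30 in PMSG. The largest were Zar1 at 2.18, Zp2 at 2.17, Dazl at 2.06 (1.29 after normexp) and Gdf9 at 2.05. Of 10 tested granulosa markers 4 rose and 2 fell, where 34.2% of all tested probes were called in either direction. Amh, the hormone of small growing follicles, rose by 3.03, and its receptor Amhr2 by 1.71. Next in size were Nr0b1, which rose, and Nr5a2, which fell, both given above. The mean level of the granulosa list was 0.52 to 1.19 in control and 1.06 to 1.48 in PMSG.

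Of 5 luteal markers 4 fell, beside 16.6% of all tested probes. The luteal list had a median of -3.31 and a mean level of -0.85 to -0.56 in control and -4.56 to -4.20 in PMSG. Akr1c18, which inactivates progesterone and is named Akr1c3 in the array files, was at least 247.3-fold lower, with 1 of 4 PMSG arrays well above background. This bound sets the control mean against the lowest signal called well above background, or the probe's own where that was higher, on each PMSG array. Hsd17b7 fell by 3.77 and Prlr fell by 2.15. Ptgfr, the receptor of the prostaglandin that ends luteal life, was at least 3.14-fold lower, with 0 PMSG arrays well above background. After normexp background correction the log2 differences were -0.53 for Ptgfr and -5.44 for Akr1c18, both still past the threshold with limma.

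The adrenal cortex shares much of this steroid path, so its markers were read too. Of 5 tested, 2 passed the threshold, where 34.2% of all tested probes did, so the count is no result about the list. Mrap fell by 3.42 and Cyp11b1 fell by 1.14, while the median log2 difference of the 5 was -0.43. After normexp background correction Cyp11b1 was at -0.32 (limma adjusted p = 0.0891), which left 1 called. The mean level was -2.44 to -2.17 in control and -3.89 to -2.62 in PMSG. Of 8 leukocyte markers 5 rose, beside 17.6% of all tested probes. The mean level of the 8 was -0.26 to 0.02 in control and 0.34 to 0.55 in PMSG. Those that rose included Cd74 by 1.66, Ptprc by 0.69, Aif1 by 0.68 and Laptm5 by 0.64.

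Of 8 endothelial markers 4 fell and 1 rose, beside 16.6% and 17.6% of all tested probes. The mean level of the 8 was -1.22 to -0.99 in control and -1.62 to -1.31 in PMSG. Tek, well above background on 3 of 4 PMSG arrays, was at least 2.02-fold lower. After normexp background correction, whose offset shrinks the differences of dim probes, Tek was not called, at -0.20 (limma adjusted p = 0.175). Flt1 was then at -0.63. Without that correction Flt1 fell by 1.04 and Eng fell by 0.90, while Vwf rose by 0.50. Of 10 fibroblast and smooth muscle markers 3 rose, namely Dcn by 0.70, Lum by 0.58 and Pdgfra by 0.50, none of them called under median centring. Over all tested probes 34.2% were called in either direction, so this count is no result about the list. The median log2 difference of the 10 was 0.10, beside 0.11 over all tested probes. The mean level of the 10 was 2.79 to 3.28 in control and 2.89 to 3.52 in PMSG. Across all lists, 107 genes were tested, of which 29 were higher and 25 lower, with a median of 0.11. Over all tested probes 17.6% were higher and 16.6% lower.

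**Figure D4:**
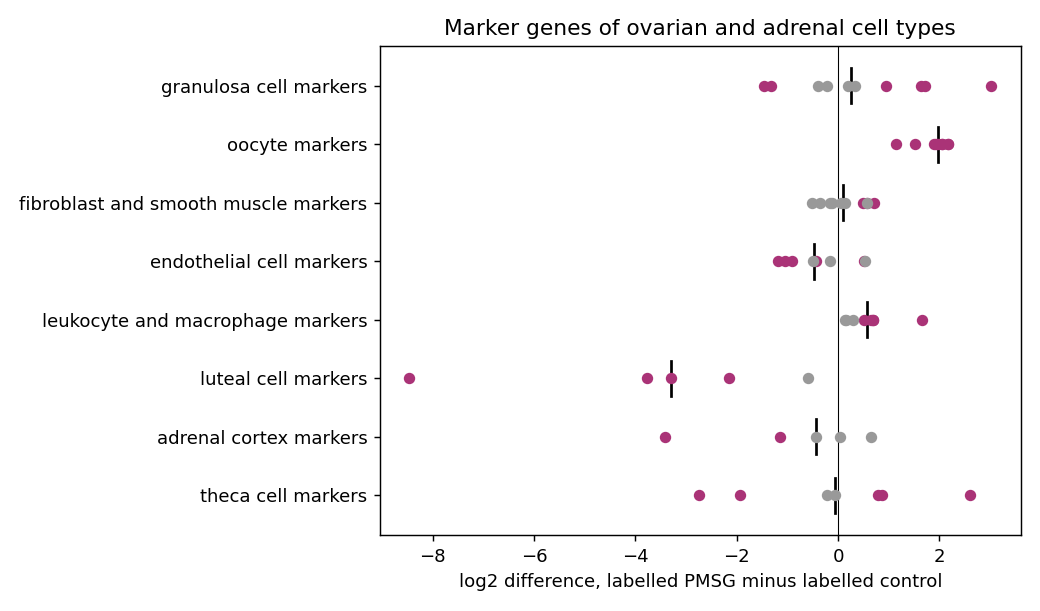
Log2 difference between PMSG and control arrays for the tested genes of each cell type list, 1 point per gene, with coloured points past an adjusted p of 0.05, grey points not, and a black tick at the median. The luteal list (median -3.31) and the oocyte list (median 1.97) lie at opposite ends.

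PMSG-labelled array 4 stood low for both members and for most of their pathway. It was the lowest of its group in 12 of 16 androgen synthesis genes (75%) and in 5 of 7 theca markers (71.4%), against 47.3% of all tested probes. Its deviation from the group mean was -0.80 for Insl3 and -0.69 for Cyp17a1. For Lhcgr it was -0.66, for Star -1.04, for Cyp11a1 -0.81 and for Nr5a1 -0.52. Without this array the log2 difference of Insl3 was 2.86, and the cause of its low values was not tested.

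The genes whose pattern over the 8 arrays was most like that of each member were found by comparing it with 14081 named genes, each read above background in every ovary sample. Likeness was the root mean square distance between levels, each centred on the gene's own mean. For Insl3 the nearest were Dlk2 at 0.305, Atp2b3 at 0.311, Ubd at 0.369, Serpina5 at 0.376 and Ankrd2 at 0.376, where the median gene lay at 1.32. Their log2 differences between the labels were 2.45, 2.27, 2.61, 2.99 and 3.11, with 1.04 for another probe of Atp2b3. After normexp those of Serpina5 and Ankrd2 were 1.97 and 1.91. For Cyp17a1 the nearest were Zfp281 at 0.120, Mgst2 at 0.125, Gadl1 at 0.128, Olr1744 at 0.139 and Akr7a3 at 0.149, where the median gene lay at 0.432. Each of these was lowest in its PMSG group on array 4, as were 47.3% of all tested probes. The genes of both sets were picked for likeness over these same arrays. Their shared low array and their differences between the labels therefore follow from the choice.

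The genes beside each member on its chromosome were read as well. Of 9 tested probes within 100 kb of the Insl3 probe on rn4, 1 was higher and 4 were lower, with a median of -0.11. Over all tested probes 17.6% were higher and 16.6% lower. The probe of Jak3, a cytokine signalling kinase, lay 2.04 kb before it, and fell by 0.53 (limma adjusted p = 0.00353). B3gnt3 probes lay 0.91 kb and 2.19 kb after it, with differences of 0.05 and -0.11. Fcho1 rose by 1.05 (limma adjusted p = 0.00389), or by 0.33 after normexp background correction (0.0581). Pgls fell by 0.51, and the Glt25d1 probes had differences of -0.57 and -0.53.

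Of 6 tested probes within 100 kb of the Cyp17a1 probe, 1 was higher and 2 were lower, with a median of -0.01, beside 34.2% called in either direction over all tested probes. Wbp1l probes had differences of -0.44 (limma adjusted p = 0.0275) and -0.18. RGD1311783 fell by 0.41 (limma adjusted p = 0.0141). As3mt, the arsenic methyltransferase gene, had a difference of 0.32. Sfxn2, a mitochondrial carrier gene, rose by 1.22 (limma adjusted p = 0.0154), or by 0.46 after normexp.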

How the data were processed

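Per the file headers, the authors extracted spot intensity with Agilent Feature Extraction 11.5.1.1, and the processed signal was detrended over the slide and replaced by surrogates in dim spots. A log2 table by the authors, also deposited, matched these signals less each array's 75th percentile and served as an alternative. Probe coordinates are on rn4, per the file headers. Here log2 processed signals of a probe's usable spots were averaged, and the array's 75th percentile was subtracted. Probes well above background on at least 4 of 8 arrays entered lmFit and eBayes (limma 3.58.1, R 4.3.3) without covariates, and p-values were adjusted by Benjamini-Hochberg over 25303 probes at a threshold of 0.05. Lists used the brightest tested probe of a gene. The procedure was tested on simulated data. The arrays, 4 per label, limit the precision.

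Groups came from the sample titles. The members and lists were chosen with earlier results of these data known, so counts over lists are descriptions. Some listed genes enter the counts but are not reported here by name. Named were the members, genes of the 5 pathway lists, up to 4 genes with the largest difference from each cell type list, the neighbours within 100 kb, and 5 genes of like pattern per member. The alternatives were normexp with an offset of 50, quantile, median centring, the deposited table, other filters and array weights. Others were the mean over a gene's probes, a replicate block, a slide row block, and each array left out.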

Additional observations from a re-analysis of the deposited data

Results flagged for a closer look

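In 9 of 160 groups of 4 arrays examined, 1 array stood apart from the other three by more than Dixon's 95% critical value allows for the ratio of gap to range. Chance alone would give about 8. Of these, 4 were due to PMSG-labelled array 4. Its Insl3 level of 2.49 lay below 3.50 to 3.59 in the others (ratio 0.921). Its Fdxr level of 4.72 lay below 5.18 to 5.22 (ratio 0.911), and its Hsd3b1 level of 6.69 below 7.12 to 7.18 (ratio 0.868). Its Gli1 level of -1.27 lay above -1.72 to -1.70 (ratio 0.955).

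Laptm5 was highest in PMSG-labelled array 3, at 2.52 against 2.42 to 2.43 (ratio 0.903). Por was lowest in control-labelled array 1, at 1.67 against 1.77 to 1.78 (ratio 0.901). Hsd17b7 was highest in control-labelled array 2, at 2.76 against 2.13 to 2.18 (ratio 0.909). The log2 ratio of Cyp17a1 to Cyp11a1 was lowest in control-labelled array 4, at -1.69 against -1.51 to -1.49 (ratio 0.893). That of Cyp17a1 to Star was lowest in PMSG-labelled array 2, at 1.36 against 3.15 to 3.37 (ratio 0.889).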

How the results depend on the processing

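Under 18 alternatives Insl3 kept its call, with log2 differences of 2.43 to 2.86 and limma adjusted p of 5.90e-05 to 0.00489. Cyp17a1 passed the threshold under none of 18 (limma adjusted p 0.166 to 0.961), and leaving out single arrays gave -0.34 to 0.0093. The count of 54 listed genes past the threshold ran from 48 to 60. Median centring moved the median of all tested probes from 0.11 to -0.05 and gave 12 lower and 0 higher androgen synthesis genes.

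The labels do not say whether arrays with the same replicate number were paired. Correlations of their deviations from the group means were 0.04, 0.04, 0.18 and -0.02, which cannot exclude a pairing. With the replicate block Insl3 gave 2.60 (limma adjusted p = 0.00489) and Cyp17a1 -0.22 (limma adjusted p = 0.367). In the same pairing the ratio changes stayed 2.81, 3.14 and 2.53, but an exact sign-flip test gave 0.125, the smallest that 4 pairs allow. For Cyp17a1 to Star, leaving out single arrays gave 2.34 to 3.01, and without any 1 control array the exact permutation p was 0.0571.

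Of 75 other named genes, 48 kept direction and call, 13 lost a call, 7 gained one and 7 changed sign under some alternative. Hsd3b1 gave -0.14 under quantile normalization and -0.10 under median centring. B3gnt3 gave 0.0060 with normexp and 0.15 with array weights, Olr1744 0.078 and 0.15, and Gadl1 0.019 with array weights. Leaving out single arrays gave ranges across 0 for Fshr (-0.018 to 0.56), Nr2f2 (-0.29 to 0.089), B3gnt3 (-0.32 to 0.21), Zfp281 (-0.26 to 0.049), Gadl1 (-0.28 to 0.10) and Olr1744 (-0.15 to 0.21). The causes were not tested.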
